A study of Mus musculus with 6 samples.

Results

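The normal change of palatal mesenchyme over 1 day of development was described by comparing control libraries only, 2 from embryonic day 13.5 (E13.5) with 1 from E12.5. These are the 3 libraries of the 6 in the series whose titles carry the genotype Osr2RFP/+, and the mutant libraries were not used. Each holds RNA of mouse palatal shelf cells sorted by flow cytometry for the red fluorescent protein (RFP) expressed from the Osr2RFP allele, on a mixed strain background. Control animals of both ages therefore carried 1 Osr2RFP allele over a wild-type allele, and no library without the reporter was part of the comparison. The labels do not say what the RFP allele lacks of Osr2, nor whether a library came from 1 embryo or from several, and p-values here reflect no more than the variation among the libraries at hand.

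The palatal shelves grow out of the maxillary processes and descend beside the tongue before they lift above it, meet and fuse into the roof of the mouth. Their core is mesenchyme derived from the cranial neural crest, covered by oral epithelium. Its growth depends on exchange of signals with that epithelium, on cell division, and on an extracellular matrix rich in hyaluronan and collagen that takes part in shelf elevation, and parts of it later form bone. Osr2, a zinc finger transcription factor, is expressed in this mesenchyme and is needed for shelf growth.

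Levels were deposited as FPKM (fragments counted on a transcript, divided by its length in kilobases and by the number of mapped fragments), and were summed here per gene symbol. The FPKM sum was 154919 at E12.5 and 167058 and 158208 in E13.5 replicates 1 and 2, and 10281 to 10498 genes reached 1 FPKM in each library. The depth estimated from the deposited coverage was 14100000 to 17090000 fragments. Read counts are not part of the tables, and no interval for counting error is given. Most mesenchymal markers were high in all 3 libraries. Pdgfra, a growth factor receptor of mesenchyme, had 29.5 FPKM at E12.5 and 30.8 and 30.7 at E13.5. Prrx1, a transcription factor of craniofacial and limb mesenchyme, had 78.2 FPKM at E12.5 and 78.2 and 74.3 at E13.5. Msx1, a transcription factor of the anterior palate, was low at 1.65, 1.99 and 2.04 FPKM. None of the 19 oral epithelium, 10 glia and 16 skeletal muscle markers reached the level for testing, and their summed levels were 4.02 to 9.35, 0.789 to 1.54 and 1.69 to 3.45 FPKM over the 3 libraries. The 15 endothelial markers summed to 3.98 to 4.2 FPKM, the 15 leukocyte markers to 5.75 to 9.18 and the 15 neuronal markers to 38 at E12.5 and 59.3 and 54.5 at E13.5, mostly from Gap43, Nefl and Nefm. Of those tested, 0 of 1 endothelial, 1 of 3 leukocyte and 3 of 6 neuronal markers were called, all higher, against 9.94% of all genes. The leukocyte call and 1 of the 3 neuronal calls were from under 1 FPKM at E12.5 and could only come out higher. The leukocyte call was also lost under median ratio scaling, after scaling to 1 FPKM sum and under quantile normalization. RNA of red blood cells was present in all 3 libraries, with erythroid markers summing to 699 FPKM at E12.5 and 593 and 501 at E13.5. In bulk samples, fewer cells of a type and less RNA per cell cannot be told apart.

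The ages also differed in the sex of the cells. Xist, the non-coding RNA that coats the inactive X, was at 141 FPKM at E12.5 and at 0.00869 and 0.00588 at E13.5. The Y-linked gene Eif2s3y, a translation factor subunit, had 0 FPKM at E12.5 and 8.27 and 6.71 at E13.5, and Kdm5d, a Y-linked histone demethylase, had 0, 4.97 and 4.97. Of 9 tested sex-linked genes, 4 on the Y were called higher and 3 on the X lower (44.4% and 33.3%, against 9.94% and 5.42% of all genes). The 4 on the Y were under 1 FPKM at E12.5 and could only come out higher. Xist was kept out of the test by its filter, given below. The 3 on the X, Eif2s3x (-0.79), Kdm6a (-0.65) and Kdm5c (-0.57), are known to escape X inactivation. The title number before the hyphen was shared by the E13.5 libraries and differed at E12.5, and the labels do not say what it stands for. Age, sex and this number cannot be told apart in the comparison. Without the X and Y chromosomes, 1523 genes passed the test below, each of them also called with all chromosomes.

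The comparison asks which genes differ in sorted control mesenchyme between E12.5 and E13.5. Many of the largest increases were in genes of the extracellular matrix, of insulin-like growth factor (IGF) signalling and of retinoid handling, and the most numerous decreases within any list were in genes of mitosis. Of 10396 genes tested, 1596 (15.4%) passed, 1033 (9.94%) higher at E13.5 and 563 (5.42%) lower. The test was limma with an intensity trend on log2(FPKM + 1), with Benjamini-Hochberg adjusted p under 0.05 and both E13.5 libraries on the same side of E12.5, and "rose" and "fell" are used below only for genes that passed it. Called differences were moderate, with a median size of 0.60 on the log2 scale and a smallest of 0.37. Only 208 of the called genes differed by 1 or more, 191 higher and 17 lower. The test took genes with 1 FPKM or more in at least 2 of the 3 libraries. It therefore held 322 genes that were under 1 FPKM at E12.5 and reached it in both E13.5 libraries, higher at E13.5 by construction, and left out 197 that reached it at E12.5 alone. Of the 191, 61 were such genes. With a filter at a mean of 5 FPKM over the 3 libraries, 98 called genes were higher by 1 or more and 17 lower. That mean holds 2 libraries of E13.5 and 1 of E12.5, so it too admits genes high at E13.5 more readily. Of the 98, 4 were under 1 FPKM at E12.5. The fit takes the spread of the single E12.5 library to be that of the E13.5 pair. With 1 library against 2, 81.1% of tested genes had E13.5 values that did not overlap the E12.5 value, so a lack of overlap alone says little about a gene. The number of calls depended on scaling and on the filter, with 653 under quantile normalization and 994 after scaling to 1 FPKM sum, and 581 genes (431 higher, 150 lower) passed under every alternative other than no filter in which they were tested. With no filter, which adds genes near 0 FPKM to the variance estimate, 1 of the 1596 calls was kept.

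**Figure D1:**
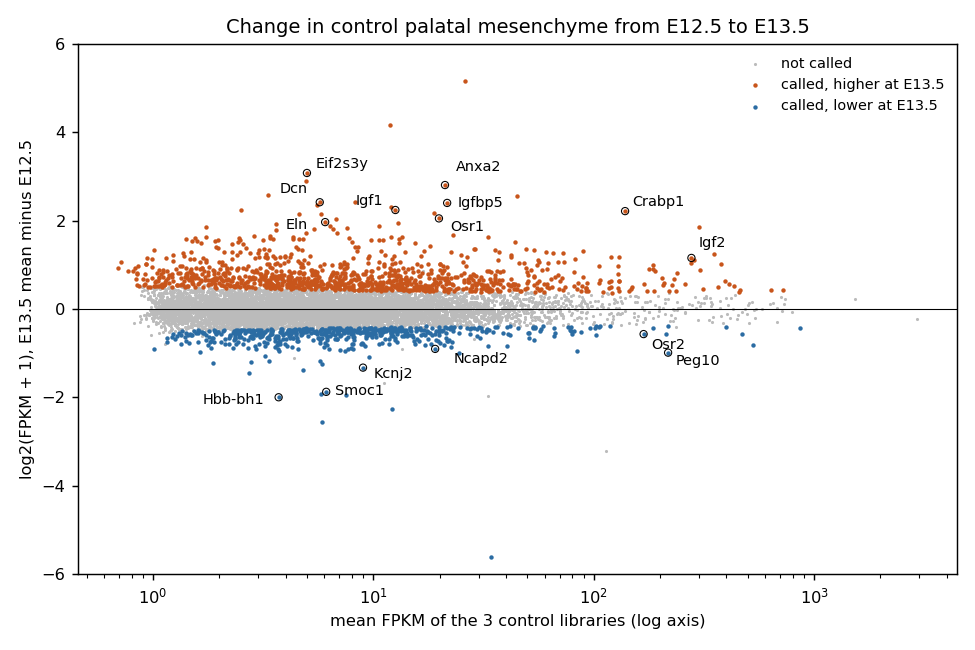
Each point is 1 of 10396 tested genes, with the mean FPKM of the 3 control libraries on a log axis against the difference of log2(FPKM + 1), E13.5 mean minus E12.5. Orange points were called higher (1033), blue points called lower (563) and grey points were not called, and circled genes are named in the text. Large differences lie mostly above the zero line, where 191 called genes differed by 1 or more against 17 below it; the filter admitted 322 genes on at E13.5 alone and kept out 197 on at E12.5 alone.

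Osr2 itself (mm10 chromosome 15, 35296112 to 35303305) fell, with a log2 difference of -0.57 (SE 0.126, adjusted p = 0.0031). It had 215 FPKM at E12.5 and 138 and 152 at E13.5. The tables do not separate transcripts of the reporter allele from those of the wild-type allele. Its paralog Osr1 (chromosome 12, 9574442 to 9581500), a related zinc finger factor, went the other way, from 5.60 FPKM at E12.5 to 21.2 and 32.8 at E13.5. Osr1 rose by 2.05 (SE 0.176, adjusted p = 2.44e-08). With robust variance estimates, which allow single genes a larger spread, the Osr1 adjusted p was 0.0619.

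Many genes of the extracellular matrix rose. Over 7 matrix lists (collagens, collagen processing, leucine-rich proteoglycans, elastic fibre genes, matricellular proteins, hyaluronan genes, and proteases with their inhibitors) 109 different genes were tested, of which 61 rose (56.0%, against 9.94% of all genes) and 2 fell. The median difference of these genes was 0.54 on the log2 scale, against -0.003 for all genes tested. Of the 61, 13 were under 1 FPKM at E12.5 and passed the filter through E13.5 alone, among them Col12a1, Col14a1, Adamts2, Dcn, Kera, Emilin3, Cd44, Spon1 and Smoc2, so their calls carry no weight for a direction of the lists. With a filter at a mean of 5 FPKM 32 of 67 matrix genes rose (47.8%, against 7.23% of all genes under that filter) and 1 fell. That filter also weighs E13.5 more than E12.5, and 1 of the 32 was under 1 FPKM at E12.5. Among 22 collagen genes 14 rose (63.6%, against 9.94% of all genes) and none fell, with a median of 0.71, which was 0.74 against E12.5 in E13.5 replicate 1 alone and 0.62 in replicate 2 alone. Under quantile normalization 11 of these 14 calls were kept, and 9 with a filter at a mean of 5 FPKM.

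Col1a1, which encodes the alpha 1 chain of type I collagen, had 78.2 FPKM at E12.5 and 153.5 and 154 at E13.5. Col3a1, the chain of type III collagen, had 113 FPKM at E12.5 and 210 and 214 at E13.5. Both rose, with closely similar E13.5 libraries (log2 difference 0.97, SE 0.124, adjusted p = 7.83e-06 for Col1a1, and 0.90, SE 0.123, adjusted p = 1.7e-05 for Col3a1). Col1a2, the partner chain of type I collagen, had 193 FPKM at E12.5 and 206 and 195 at E13.5 and was not called (difference 0.05, SE 0.124, adjusted p = 0.842). The microfibrillar type VI chains rose by more, Col6a1 by 1.23 and Col6a2 by 1.27. Col12a1, a collagen that associates with fibril surfaces (chromosome 9, 79598991 to 79718678), had 0.741 FPKM at E12.5 and 5.11 and 4.95 at E13.5. It rose by 1.79 (SE 0.155, adjusted p = 2.76e-08), the most of the collagen list. Col14a1, another fibril-associated collagen, rose from 0.0682 FPKM to 1.45 and 1.29.

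Of 23 collagen processing genes 13 rose and 1 fell (56.5% and 4.35%, against 9.94% and 5.42% of all genes), with a median of 0.46. Creb3l1 (chromosome 2, 91982328 to 92024170), an endoplasmic reticulum transcription factor that activates collagen genes in bone-forming cells, had 1.07 FPKM at E12.5 and 7.81 and 8.55 at E13.5 (difference 2.15, SE 0.151, adjusted p = 1.04e-09). Lox, the lysyl oxidase that crosslinks collagen and elastin, had 1.35 FPKM at E12.5 and 6.70 and 6.84 at E13.5, and rose by 1.73. Adamts2, a procollagen N-proteinase, rose from 0.822 FPKM to 2.44 and 2.88. The other named risers were Fkbp10, a collagen chaperone (0.84), Ppib, a prolyl isomerase acting on procollagen (0.81), and Leprel1, a prolyl 3-hydroxylase (0.76). P4ha3, a subunit of prolyl 4-hydroxylase, fell by 0.44, from 14.6 FPKM to 9.92 and 11.2, but this call was lost under 5 alternatives with a filter (adjusted p up to 0.109).

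Of 8 tested leucine-rich proteoglycans, small proteins that bind collagen fibrils, 6 rose (75.0%, against 9.94% of all genes) and none fell, with a median of 1.27. Of these 6, 4 were under 1 FPKM at E12.5 and could only come out higher, so the median carries no weight for a direction. Dcn, decorin (chromosome 10, 97479500 to 97518162), had 0.720 FPKM at E12.5 and 7.64 and 8.77 at E13.5, below the 1 FPKM level at the earlier age and well above it in both later libraries. It rose by 2.42 (SE 0.154, adjusted p = 2.09e-10). Lum, lumican, rose by 1.51, from 19.2 FPKM to 61.7 and 51.5, and Bgn, biglycan, by 1.07, from 39.2 FPKM to 85.3 and 81.5. Kera, keratocan, rose by 1.05, from 0 FPKM to 1.05 and 1.10. Ogn and Aspn, of the same family, overlap Cenpp and are uncertain, with differences of 1.46 and 1.49.

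Elastic fibre genes followed, with 9 of 16 higher (56.2%, against 9.94% of all genes), none lower and a median of 0.46. Of the 9, Emilin3 was under 1 FPKM at E12.5 and could only come out higher. With a filter at a mean of 5 FPKM 5 of the 9 calls were kept, and 6 under quantile normalization. Eln, elastin (chromosome 5, 134702596 to 134747254), had 1.39 FPKM at E12.5 and 7.67 and 9.07 at E13.5, and rose by 1.97 (SE 0.153, adjusted p = 5.52e-09). Emilin3, an elastin microfibril interface protein, rose by 1.61, Efemp1, a fibulin, by 1.21, and Ltbp4, which anchors latent transforming growth factor beta (TGF beta) to microfibrils, by 0.80. Hyaluronan genes had 5 of 9 higher (55.6%) and none lower (median 0.40). Of the 5, 1 was under 1 FPKM at E12.5 and could only come out higher. With a filter at a mean of 5 FPKM 1 of the 5 calls was kept, and 3 under quantile normalization. Has2, the main hyaluronan synthase of embryonic mesenchyme, rose by 1.22, from 5.52 FPKM to 14.4 and 14. Cd44, a hyaluronan receptor, rose by 1.47, from 0.638 FPKM to 3.52 and 3.55, and Vcan, the hyaluronan-binding proteoglycan versican, by 0.40, a call lost under 4 alternatives with a filter (adjusted p up to 0.0868). Ptx3, which takes part in hyaluronan matrix assembly, had a difference of 1.36 and is of uncertain assignment.

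Matricellular genes, whose products bind matrix and cells without forming fibres, had 7 of 14 higher and 1 lower (median 0.60). Postn, periostin, rose from 111 FPKM to 237 and 207 (difference 0.997). Tnc, tenascin C, rose by 1.07, Sparc, a collagen-binding glycoprotein, by 1.06, and Spon1, a spondin, by 1.13. Smoc1 (chromosome 12, 81026808 to 81186414), a SPARC-related secreted protein, had 12.8 FPKM at E12.5 and 2.90 and 2.63 at E13.5, and fell by 1.87 on the log2 scale (SE 0.150, adjusted p = 7.37e-09). The related Smoc2 had 0.267 FPKM at E12.5 and 2.10 and 3.54 at E13.5. It rose by 1.57, but passed the filter through E13.5 alone and could only come out higher. Of 17 matrix proteases and inhibitors 7 rose (41.2%) and none fell (median 0.36). Among the risers were Mmp14, a membrane-bound collagenase (0.71), and Adamts1, a versican-cleaving protease (0.82). Of the 7, 1 was under 1 FPKM at E12.5 and could only come out higher. Timp3, a metalloprotease inhibitor whose gene overlaps Syn3, had a difference of 1.398 and is uncertain.

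**Figure D2:**
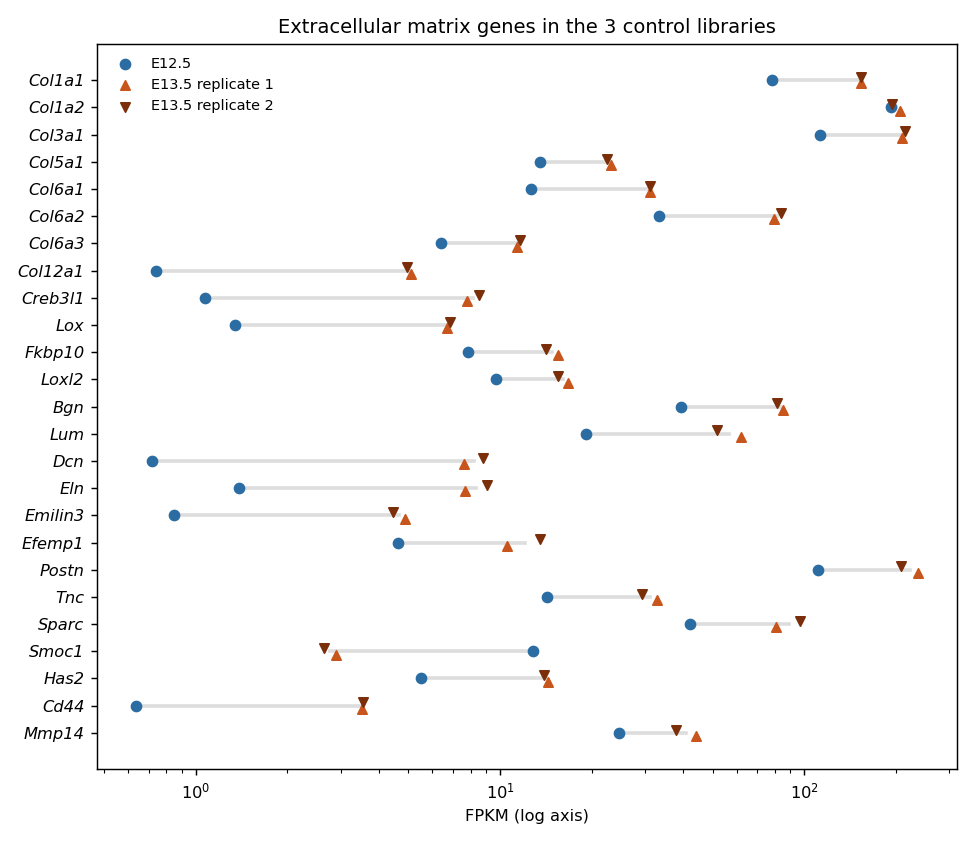
FPKM of selected extracellular matrix genes on a log axis, with a circle for the E12.5 library, an upward triangle for E13.5 replicate 1 and a downward triangle for replicate 2; grey lines join E12.5 to the E13.5 mean. In most rows both triangles lie close together to the right of the circle, as for Dcn (0.720 against 7.64 and 8.77 FPKM); Smoc1 lies to the left and Col1a2 at nearly the same level.

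In the IGF axis both ligands and 5 binding proteins rose, while the receptor genes Igf1r, Igf2r and Insr were not called (differences -0.16, 0.22 and 0.04). Of 13 tested members 8 rose (61.5%, against 9.94% of all genes) and none fell, with a median of 0.70. Under quantile normalization 7 of the 8 calls were kept. Igf1 (chromosome 10, 87859056 to 87937047), a growth factor ligand, had 2.87 FPKM at E12.5 and 15.1 and 19.8 at E13.5, and rose by 2.24 (SE 0.155, adjusted p = 8.34e-10). Igf2, the fetal ligand and a far more abundant mRNA per length, had 152 FPKM at E12.5 and 331.5 and 349 at E13.5, and rose by 1.16 (SE 0.124, adjusted p = 6.35e-07). The 5 binding proteins, which hold IGF in the extracellular space and modulate its access to the receptor, rose by 0.64 (Igfbp4) to 2.40. Igfbp5 (chromosome 1, 72858065 to 72874865) went from 4.86 FPKM to 30.8 and 29.2 (difference 2.40, SE 0.135, adjusted p = 2.86e-11). Igfbp3 went from 4.98 FPKM to 25.3 and 26.4 (2.17), and Igfbp2 from 2.10 FPKM to 9.13 and 9.24 (1.72). Pappa2, a protease that cleaves binding proteins, rose by 0.93, from 1.04 FPKM to 2.98 and 2.77.

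Igf2 is imprinted, that is expressed from 1 parental allele, and 27 imprinted genes were tested as a list. Of these, 7 rose and 1 fell (25.9% and 3.7%, against 9.94% and 5.42% of all genes). The median was 0.01 and changed sign under other settings. H19, the non-coding RNA beside Igf2, rose by 1.03, from 223 FPKM to 480 and 434. Plagl1, a zinc finger factor, rose by 1.26, from 37.0 FPKM to 90.1 and 90.3, and Cdkn1c, an inhibitor of cyclin-dependent kinases, by 0.63, from 94.9 FPKM to 141 and 153. Snrpn, a splicing protein gene, rose by 0.73, and Dcn, counted above, is on this list too. Peg10 (chromosome 6, 4747306 to 4760516), a gene derived from a retrotransposon, had 325 FPKM at E12.5 and 172 and 156 at E13.5, and fell by 0.99 (SE 0.126, adjusted p = 7.54e-06). Asb4, which encodes a ubiquitin ligase adaptor and lies on the same chromosome from 5383386 to 5433021, fell by 0.95, from 124 FPKM to 66.8 and 60.8, and is not on the list of imprinted genes tested. Dlk1 and Meg3, of another imprinted cluster, had 22.9 and 50.7 FPKM at E12.5 and were not called (differences -0.32 and -0.34).

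Retinoid handling genes had 5 of 13 higher (38.5%, against 9.94% of all genes) and none lower, with a median of 0.32. Crabp1 (chromosome 9, 54764748 to 54773110), a cytoplasmic retinoic acid binding protein, had 39.7 FPKM at E12.5 and 192.5 and 184 at E13.5, and rose by 2.22 (SE 0.125, adjusted p = 2.86e-11). Its paralog Crabp2 had 22.3 FPKM at E12.5 and 53.4 and 50.7 at E13.5, and rose by 1.18. Stra6, the cell surface receptor for retinol-binding protein, rose by 0.93, from 7.02 FPKM to 14.2 and 14.5. Cyp26b1, the enzyme that breaks retinoic acid down, rose by 0.74, from 18.6 FPKM to 33.7 and 29.9. The nuclear receptor genes Rara, Rarg, Rxra and Rxrb and the synthesis enzyme gene Aldh1a2 were not called, with differences from -0.03 to 0.35.

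Many genes of mitosis fell. Of 55 tested genes of G2 and mitosis, 25 fell and none rose, against 5.42% of all genes that fell, and 6 of the 55 had a higher E13.5 mean. The median difference was -0.40, and it was -0.38 against E12.5 in E13.5 replicate 1 alone and -0.40 in replicate 2 alone. Of the 25 calls, 13 were kept under quantile normalization and 11 with a filter at a mean of 5 FPKM, while the list median stayed between -0.46 and -0.29 under all settings tried. The promoters of 4 genes of this list are printed because many windows of this list hold the sequence elements known from mitotic genes. They are the called members with the largest decreases among those with 1 window in the table that holds both the CCAAT box, bound by the factor NF-Y, and TTTGAA, the core of the cell cycle homology region, in any order and on either strand. Each runs 5′ to 3′ from 250 bases before the transcript start to 50 after it, from RefSeq on GRCm38.p6, and capitals mark each CCAAT and TTTGAA on either strand. Ncapd2 (chr6:125191537-125191836, minus strand) encodes a condensin subunit, Spag5 (chr11:78301341-78301640, plus strand) a spindle protein, Ccnb2 (chr9:70421505-70421804, minus strand) cyclin B2, and Kif4 (chrX:100625815-100626114, plus strand) a chromosome-bound kinesin.
Ncapd2: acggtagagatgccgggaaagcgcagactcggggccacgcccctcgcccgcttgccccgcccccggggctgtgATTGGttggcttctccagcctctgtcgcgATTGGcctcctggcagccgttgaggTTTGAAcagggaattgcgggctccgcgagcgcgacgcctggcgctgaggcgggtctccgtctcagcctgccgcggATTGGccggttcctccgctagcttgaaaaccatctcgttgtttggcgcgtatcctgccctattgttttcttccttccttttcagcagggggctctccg
Spag5: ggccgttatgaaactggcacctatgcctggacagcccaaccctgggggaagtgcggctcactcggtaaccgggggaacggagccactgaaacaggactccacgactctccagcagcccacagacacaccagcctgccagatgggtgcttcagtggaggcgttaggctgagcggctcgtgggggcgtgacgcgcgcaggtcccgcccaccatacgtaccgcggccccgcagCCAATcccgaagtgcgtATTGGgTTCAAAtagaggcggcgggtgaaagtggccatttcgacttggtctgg
Ccnb2: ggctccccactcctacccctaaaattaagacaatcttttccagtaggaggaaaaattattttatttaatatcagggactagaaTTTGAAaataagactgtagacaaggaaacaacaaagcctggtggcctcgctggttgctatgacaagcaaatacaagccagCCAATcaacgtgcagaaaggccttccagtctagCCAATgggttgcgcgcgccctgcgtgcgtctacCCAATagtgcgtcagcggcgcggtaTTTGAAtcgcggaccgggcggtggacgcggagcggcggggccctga
Kif4: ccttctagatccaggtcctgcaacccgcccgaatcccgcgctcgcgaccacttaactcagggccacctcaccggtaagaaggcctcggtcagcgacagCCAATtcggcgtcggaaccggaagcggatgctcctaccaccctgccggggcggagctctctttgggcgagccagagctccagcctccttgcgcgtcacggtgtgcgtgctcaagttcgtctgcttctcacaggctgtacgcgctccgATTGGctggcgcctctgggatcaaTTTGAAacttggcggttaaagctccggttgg
A match is only a description of the letters in this window. CCAAT was found in 79.6% of the 49 windows available for the tested genes of the list and TTTGAA in 75.5%, against 38.1% and 11.5% of windows of all tested genes and 37.4% and 17.9% of all RefSeq windows of the same length. Both were found in 69.4% of the list's windows and in 75.0% of the 20 windows of its members that fell, so members that were not called hold them too. The S phase list had both in 8.33% of 48 windows.

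Ncapd2 had 28.1 FPKM at E12.5 and 15.0 and 14.1 at E13.5, and fell by 0.90 on the log2 scale (SE 0.135, adjusted p = 5.32e-05). Spag5 had 8.93 FPKM at E12.5 and 4.74 and 4.23 at E13.5, and fell by 0.86 (SE 0.148, adjusted p = 0.000302). Ccnb2 had 29.6 FPKM at E12.5 and 17.5 and 17.6 at E13.5, and fell by 0.72 (SE 0.133, adjusted p = 0.000549). In all 3 genes the E13.5 libraries differed little from each other. Foxm1, a transcription factor of G2 and mitotic genes, fell by 0.66, from 28.6 FPKM to 17.3 and 18.3, and Kif4 by 0.57, from 12.95 FPKM to 8.72 and 8.02. Among the most abundant members, Top2a, a topoisomerase of chromosome condensation, fell by 0.55, from 63.9 FPKM to 43.8 and 42.7. Mki67, the proliferation antigen Ki-67, fell by 0.42, from 54.5 FPKM to 40.0 and 40.9, with an adjusted p of 0.0285 that reached 0.0661 under alternatives with a filter. Ccnb1 (difference -0.33) and Cdk1 (-0.17), the cyclin and kinase of mitotic entry, were not called, nor was the mitotic kinase gene Aurkb (0.03).

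Genes of DNA replication moved less. Of 50 tested S phase genes 9 fell (18.0%, against 5.42% of all genes) and 1 rose (2.0%, against 9.94%). The median was -0.22, and 7 of the 50 had a higher E13.5 mean. Rfc2, a clamp loader subunit, fell by 0.79, Fen1, the flap endonuclease, by 0.67, and Rrm1, the large subunit of ribonucleotide reductase, by 0.62. Mcm5, a subunit of the replicative helicase, fell by 0.60, from 18.6 FPKM to 11.9 and 12. Gins2, of the GINS complex of the same helicase, rose by 0.60, from 19.7 FPKM to 30.4 and 30.7. Pcna, the sliding clamp and the most abundant member, had 74.9 FPKM at E12.5 and 78.9 and 74.4 at E13.5 and was not called.

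Among 20 genes of G1 cyclins, inhibitors and their regulators, 4 rose and 1 fell (20.0% and 5.0%, against 9.94% and 5.42% of all genes). Of the MYC family genes, transcription factors of cell growth, Myc rose, Mycn fell and Mycl was not called (difference -0.36, adjusted p = 0.149). Myc (chromosome 15, 61985341 to 61990361) had 7.99 FPKM at E12.5 and 22.2 and 20.7 at E13.5, and rose by 1.32 (SE 0.136, adjusted p = 3.73e-07). Mycn had 5.73 FPKM at E12.5 and 2.01 and 3.29 at E13.5, and fell by 0.91 (SE 0.180, adjusted p = 0.00116). The Mycn call was lost under quantile normalization and after scaling to 1 FPKM sum, with adjusted p up to 0.102. Ccnd3, cyclin D3, rose by 0.70, while Ccnd1 and Ccnd2 were not called, with differences of 0.04 and 0.17. Cdkn2d, an inhibitor of cyclin D kinases, rose by 0.55, a call lost under 3 alternatives with a filter (adjusted p up to 0.149).

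**Figure D3:**
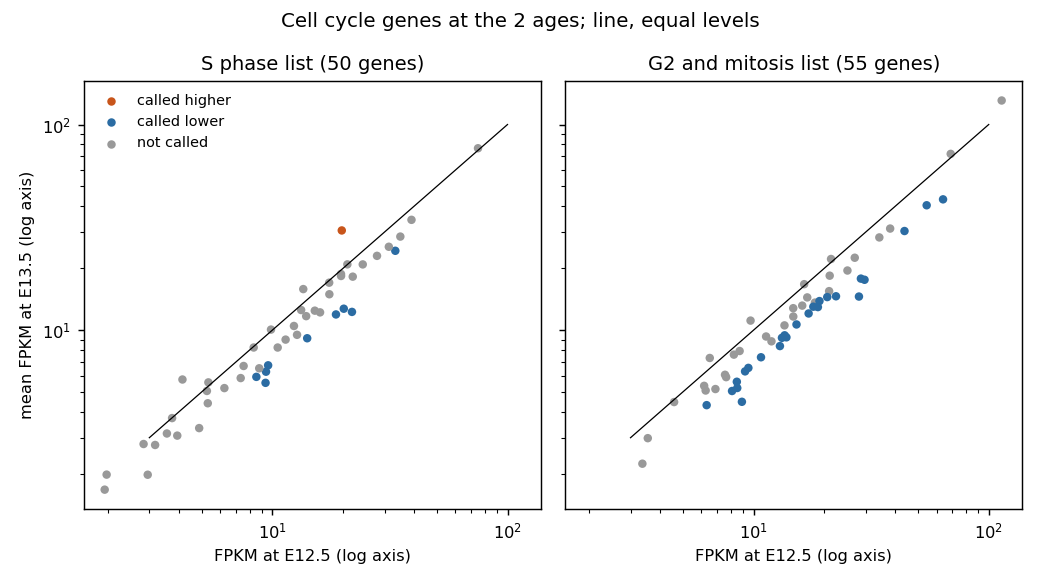
FPKM at E12.5 against the mean FPKM at E13.5, both on log axes, for the 50 tested S phase genes (left) and the 55 tested genes of G2 and mitosis (right); the line marks equal levels, blue points were called lower, orange higher and grey not called. Points of both lists lie mostly below the line, with 25 blue points on the right and 9 on the left, and Gins2 is the 1 orange point.

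Transcription factors known from the palate divided into risers and fallers. Of 51 tested, 15 rose and 11 fell (29.4% and 21.6%, against 9.94% and 5.42% of all genes), and the median was 0.08. Of the 26 calls, 19 were kept under quantile normalization and 13 with a filter at a mean of 5 FPKM. Shox2, a homeodomain factor of the anterior palate, had 35.9 FPKM at E12.5 and 77.6 and 73.2 at E13.5, and rose by 1.05 (SE 0.127, adjusted p = 3.85e-06). Tfap2b, an AP-2 factor of neural crest derivatives, had 10.9 FPKM at E12.5 and 26.8 and 29.6 at E13.5, and rose by 1.29. Tbx15, a T-box factor of skeletal development, rose by 1.65, from 0.581 FPKM to 3.12 and 4.95, and Hic1, a zinc finger repressor, by 1.54, from 0.244 FPKM to 1.83 and 3.65. Snai2, a zinc finger repressor of neural crest mesenchyme, rose by 0.83. Tbx15 and Hic1 varied between the E13.5 libraries. They were among 3 of the 15 risers that were under 1 FPKM at E12.5 and could only come out higher.

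Tbx22, a T-box repressor whose human counterpart is mutated in X-linked cleft palate, had 6.16 FPKM at E12.5 and 3.30 and 2.71 at E13.5, and fell by 0.84 (SE 0.156, adjusted p = 0.000603). It lies on the X chromosome, on which 13 of 369 tested genes fell and 36 rose. Called genes thus made up 13.3% of tested X genes, against 15.4% of all genes. Six4, a homeodomain factor, fell by 0.77 and Tbx2, a T-box repressor, by 0.76, from 27.9 FPKM to 16.9 and 15.3. Foxp2, a forkhead factor, fell by 0.72. Lhx6, a LIM homeodomain factor of oral mesenchyme, fell by 0.55, from 101 FPKM to 66.2 and 70.9. Pax9, a paired box factor needed for palate and teeth, had 70.9 FPKM at E12.5 and 55.9 and 64.2 at E13.5 and was not called (difference -0.24, SE 0.131, adjusted p = 0.242).

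**Figure D4:**
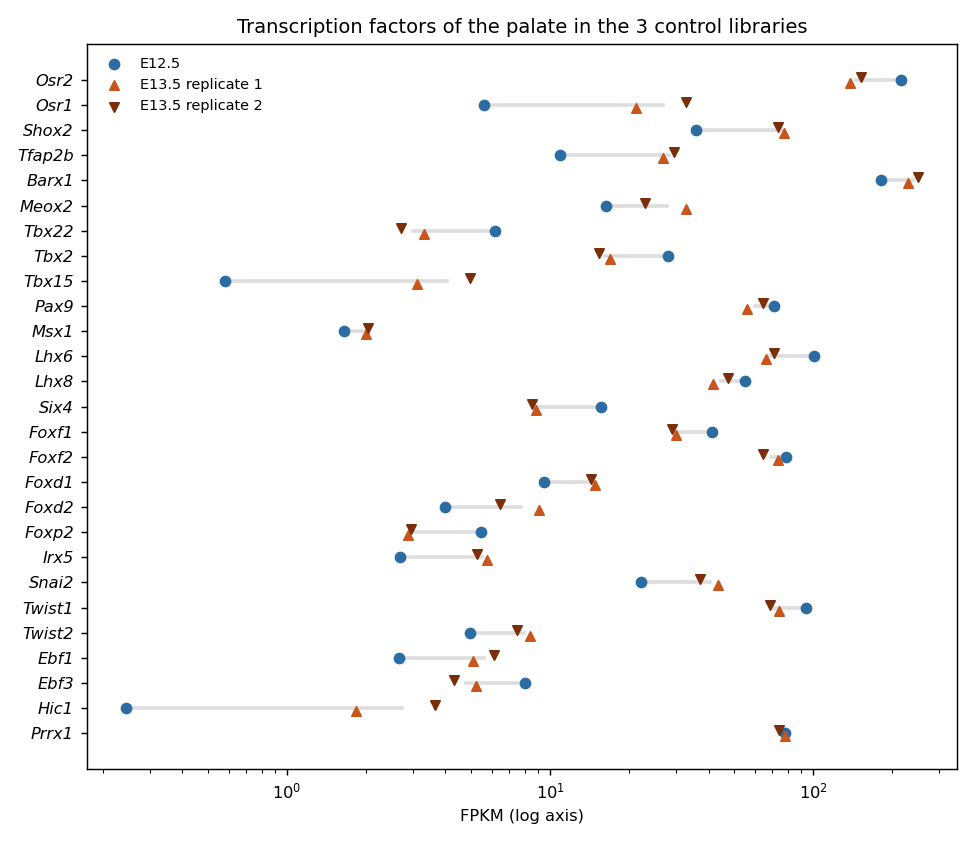
FPKM of selected palate transcription factors on a log axis in the 3 control libraries, with a circle for E12.5 and triangles for the 2 E13.5 replicates; grey lines join E12.5 to the E13.5 mean. Osr1, Shox2, Tfap2b, Tbx15 and Hic1 lie to the right of their circles, Osr2, Tbx22, Tbx2 and Lhx6 to the left, and Prrx1 shows almost no distance between ages.

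Genes of bone formation were mostly higher. Of 14 tested 8 rose and 1 fell (57.1% and 7.14%, against 9.94% and 5.42% of all genes), with a median of 0.62. Col1a1, Sparc and Postn, already given, are among the risers. Alpl, the alkaline phosphatase of mineralising tissue, had 2.40 FPKM at E12.5 and 6.62 and 5.26 at E13.5, and rose by 1.02 (SE 0.158, adjusted p = 8.21e-05). Bmp3, a bone morphogenetic protein (BMP) that opposes bone formation, rose by 1.19, from 1.66 FPKM to 6.04 and 4.24. Runx2, the master regulator of osteoblast differentiation, rose by 0.58, from 16.3 FPKM to 27.1 and 22.8, and its adjusted p was 0.0519 under quantile normalization. Dlx5, a homeodomain factor that acts in jaw patterning and bone, had 1.15 FPKM at E12.5 and 6.24 and 17.4 at E13.5. Its difference of 2.43 (SE 0.289, adjusted p = 3.08e-06) was large, but the E13.5 libraries differed widely from each other, and the call was lost under quantile normalization, after scaling to 1 FPKM sum and with robust variances (adjusted p up to 0.475). Sp7, an osteoblast factor downstream of Runx2, had 0.704 FPKM at E12.5 and 1.23 and 1.49 at E13.5 and was not called (difference 0.47).

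Only 7 of 20 cartilage genes were expressed highly enough to be tested. Of these 3 rose and 2 fell (42.9% and 28.6%, against 9.94% and 5.42% of all genes). The list median of 0.09 changed sign under other settings. Col2a1, the chain of type II collagen, had 72.4 FPKM at E12.5 and 50.3 and 38.8 at E13.5, and fell by 0.70 (SE 0.144, adjusted p = 0.00161), while Col9a2, of type IX collagen, had 1.83 FPKM at E12.5 and 6.83 and 5.59 at E13.5, and rose by 1.34. Of the partner factors of chondrocytes Sox5 and Sox6, Sox5 fell by 0.68. Sox6 was called higher at 0.49, but the call was lost under 4 alternatives with a filter (adjusted p up to 0.135). Sox9, the cartilage master regulator, had 18.3 FPKM at E12.5 and 22.1 and 17.4 at E13.5, values that overlapped. Of 15 tooth mesenchyme genes 5 rose and 3 fell (33.3% and 20.0%), with a median of 0.09 that also changed sign under other settings. Among them Tfap2b, Wnt5a (0.67), a non-canonical Wnt ligand, and Runx2 rose, and Fgf10 (-0.71), Lhx6 and Sostdc1 (-0.54), a secreted BMP and Wnt inhibitor, fell.

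Single ligands of several signalling pathways rose or fell, while few lists moved as a whole. Fgf18, a fibroblast growth factor (FGF) of skeletal development, had 5.22 FPKM at E12.5 and 12.7 and 21.2 at E13.5, and rose by 1.48 (SE 0.189, adjusted p = 7.65e-06). Its call was lost under quantile normalization and with robust variances (adjusted p up to 0.3). Fgf10, the mesenchymal FGF that signals to epithelium, had 6.49 FPKM at E12.5 and 3.52 and 3.61 at E13.5, and fell by 0.71 (SE 0.150, adjusted p = 0.00187). The FGF targets Dusp6, a phosphatase of the ERK kinase, and Etv1, an ETS factor, each fell by 0.56. The feedback inhibitor Spry1, another target, rose by 0.63, and the targets Spry2 (-0.25), Spry4 (0.19), Etv4 (-0.01) and Etv5 (-0.10) were not called. Fgf2, a ligand, rose by 0.79. Of 17 FGF genes 5 rose and 3 fell (29.4% and 17.6%, against 9.94% and 5.42% of all genes). Their median of -0.01 changed sign under other settings. Pdgfa, a platelet-derived growth factor ligand, rose by 1.56, from 4.07 FPKM to 13.6 and 14.3, and Ptn, the growth factor pleiotrophin, by 1.04, from 26.5 FPKM to 56.0 and 55.5. Pdgfc, another ligand of this family, fell by 0.57, a call lost under 3 alternatives with a filter (adjusted p up to 0.0915).

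In the BMP list 7 of 25 genes rose and 1 fell (28.0% and 4.0%, against 9.94% and 5.42% of all genes). The list median was 0.17. Gdf10, a BMP3-related ligand, rose by 1.29, from 0.263 FPKM to 1.84 and 2.35, and Bmp6 by 0.82. Both were under 1 FPKM at E12.5 and could only come out higher. Fst, which binds activin and BMP, fell by 0.61, a call lost under 3 alternatives with a filter (adjusted p up to 0.143). In the Wnt list 11 of 41 rose and 3 fell (26.8% and 7.32%), with a median of 0.15. Of the 11, 3 passed the filter through E13.5 alone and could only come out higher, Wif1 and Lgr6 among them. Among secreted regulators, Rspo1, an R-spondin that amplifies Wnt signals, rose by 0.97, from 9.63 FPKM to 21.2 and 18.6. The Wnt inhibitor gene Wif1 rose by 0.92. The Wnt antagonist gene Frzb fell by 0.42, a call lost under 2 alternatives with a filter (adjusted p up to 0.0674). Dkk2, another Wnt antagonist, had 1.08 FPKM at E12.5 and 2.79 and 6.19 at E13.5 and was called higher (difference 1.33). The Dkk2 call was lost after scaling to 1 FPKM sum, under quantile normalization and with robust variances (adjusted p up to 0.498). Among R-spondin receptors, Lgr5 fell by 0.58, from 12.3 FPKM to 7.72 and 8.04. Lgr6, for which higher was the only possible direction, rose by 1.20, from 0.269 FPKM to 2.23 and 1.63. Of 19 TGF beta genes 5 rose and 1 fell (26.3% and 5.26%), with a median of 0.19. Tgfb2, a ligand, rose by 0.96 and Tgfbr2, its type II receptor, by 0.87.

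Of 19 Hedgehog genes 3 rose and 3 fell (15.8% each, against 9.94% and 5.42% of all genes), with a median of -0.01 that changed sign under other settings. Of the 3 risers, 1 was under 1 FPKM at E12.5 and could only come out higher. Gas1, a Hedgehog co-receptor, rose by 0.95, from 12.9 FPKM to 24.1 and 27.9. Gli1, a transcriptional target and effector of the pathway, fell by 0.52, from 25.1 FPKM to 18.9 and 15.6, and Evc, a ciliary component, by 0.67. Ptch1, the receptor and itself a target, had 89.2 FPKM at E12.5 and 72.4 and 67.5 at E13.5 and was not called (difference -0.35, SE 0.127, adjusted p = 0.0673). In the Notch list 4 of 10 rose and 1 fell (40.0% and 10.0%), with a median of 0.18. Of the 4, 1 was under 1 FPKM at E12.5 and could only come out higher. The receptor gene Notch1 rose by 0.82 and the target Hey1 by 0.92, and Rfng, a glycosyltransferase that modifies Notch, fell by 0.80. Semaphorins and their receptors had 7 of 23 higher and 1 lower (30.4% and 4.35%), with a median of 0.10. Of the 7, 1 was under 1 FPKM at E12.5 and could only come out higher. The largest increases were those of Sema3a (0.83), Sema6a (0.79) and Nrp2 (0.77), a neuropilin receptor. Neuronal RNA was also higher at E13.5, as given above, with Gap43, a growth cone protein, rising by 0.65 and Nefl, a neurofilament, by 0.68, and its part in the semaphorin values was not tested.

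**Figure D5:**
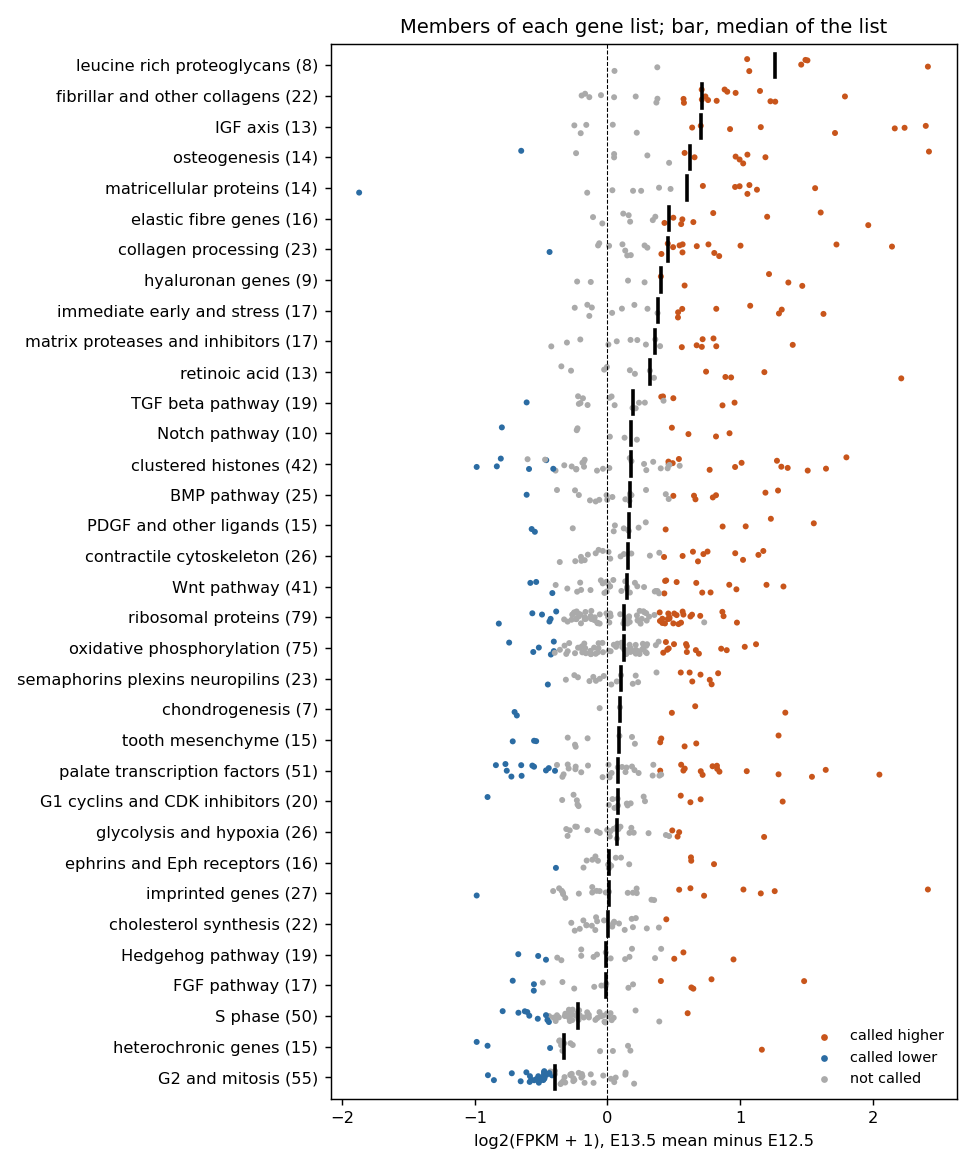
Differences of log2(FPKM + 1), E13.5 mean minus E12.5, for the tested members of each gene list with 7 or more tested members, other than red cell and sex-linked genes; numbers in brackets give tested members, black bars the list medians and the dashed line the median of all genes (-0.003). Matrix, IGF, bone and immediate early lists lie at the top, with medians from 0.36 to 1.27. The 1.27 is that of the leucine-rich proteoglycans, where 4 of 8 genes passed the filter through E13.5 alone. The heterochronic, S phase and mitosis lists lie at the bottom, with medians from -0.22 to -0.40.

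Of 16 ephrins and Eph receptors, cell contact signals, 3 rose and 1 fell (18.8% and 6.25%, against 9.94% and 5.42% of all genes). Among these were Efna3 (0.80) and Epha7 (-0.39), and the list median of 0.01 changed sign under other settings. Of the 3 risers, 2 were under 1 FPKM at E12.5, Efna3 among them, and could only come out higher. Of 15 platelet-derived and other ligands and receptors 5 rose and 2 fell (33.3% and 13.3%), with a median of 0.16. Gfra2, a co-receptor for neurturin, rose by 1.23 and Ackr3, a chemokine receptor, by 0.87. Gfra2 was under 1 FPKM at E12.5 and could only come out higher. Heterochronic genes, which mark early stages of development in several species, had 1 of 15 higher (6.67%) and 3 lower (20.0%), with a median of -0.33. Igf2bp1, an RNA-binding protein, fell by 0.43 (a call lost under 3 alternatives with a filter), along with Mycn and Peg10 given above, and the riser, Hmga1, is of uncertain assignment. Hmga2, a chromatin protein of this list, had 119 FPKM at E12.5 and 126 and 138 at E13.5 and was not called.

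Genes of the contractile cytoskeleton rose in part, 10 of 26 (38.5%, against 9.94% of all genes) with none lower (median 0.15). Tpm1, a tropomyosin, rose by 1.18, from 70.5 FPKM to 159 and 163, Myl9, a myosin regulatory light chain, by 1.14, and Tagln2, a transgelin, by 1.02. Markers of pericytes and smooth muscle summed to 11.4 FPKM at E12.5 and 18.0 and 17.2 at E13.5, with 2 of 4 tested called higher, and their part in this was not tested. Immediate early and stress genes had 8 of 17 higher (47.1%) and none lower (median 0.38). Of the 8, 3 were under 1 FPKM at E12.5, Fosl2 and Fos among them, and could only come out higher. With a filter at a mean of 5 FPKM 2 of the 8 calls were kept, and 4 under quantile normalization. The list median lay between 0.035 and 0.575 under other settings. Fosl2, an AP-1 subunit, rose by 1.63, Klf4, a zinc finger factor, by 1.31, Fos by 1.29 and Jun by 0.82. These genes are known to respond to handling of cells, and the part of dissociation and sorting in their values was not tested. In the glycolysis list 4 of 26 rose (15.4%, against 9.94% of all genes) and none fell (median 0.07). Of these 4, 1 was under 1 FPKM at E12.5 and could only come out higher. Ldha, lactate dehydrogenase A, rose by 1.18, from 64.1 FPKM to 153 and 141, and the glucose transporter gene Slc2a1 by 0.53. The calls of Slc2a3, another glucose transporter gene (0.54), and Eno1, an enolase (0.49), were each lost under 3 alternatives with a filter, with adjusted p up to 0.274 and 0.0667.

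Several of the largest single changes lay outside these lists. Anxa2 (chromosome 9, 69453683 to 69491785), a calcium-dependent membrane-binding annexin, had 3.43 FPKM at E12.5 and 30.5 and 29.5 at E13.5. It rose 6.998-fold on the log2(FPKM + 1) scale (log2 2.81, SE 0.136, adjusted p = 2.86e-12), and it was the autosomal gene with the largest called increase under the naming rule. Anxa1, another annexin, rose by 2.35, from 0.748 FPKM to 8.76 and 7.16. Lynx1, a membrane-anchored modulator of nicotinic receptors, rose by 2.15, Shank1, a scaffold protein of synapses, by 2.05, and Ehd2, an ATPase of caveolae, by 1.96. In each of these genes the E13.5 libraries lay close to each other. Anxa1 and Lynx1 were under 1 FPKM at E12.5 and could only come out higher.

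Fewer genes fell far. The size rule (a difference of 1 or more, no overlap, and a mean of 5 FPKM in the higher age) was met by 122 genes that were higher (1.17% of those tested) and 16 that were lower (0.154%). These counts leave out genes on at E12.5 alone, which the filter kept out. With no filter the rule was met by 122 genes that were higher and 29 that were lower. Hbb-bh1, an embryonic beta-like globin of primitive red cells, had 8.43 FPKM at E12.5 and 1.32 and 1.399 at E13.5, and its fall of 2.00 (SE 0.156, adjusted p = 5.52e-09) was the largest under the naming rule. Kcnj2 (chromosome 11, 111066164 to 111076825), an inward rectifier potassium channel whose human counterpart is mutated in a syndrome with craniofacial signs, had 15.6 FPKM at E12.5 and 5.26 and 6.03 at E13.5, and fell by 1.33 (SE 0.145, adjusted p = 9.18e-07). Smoc1, given above, had the next largest fall, of 1.87. The others of the 15 named had smaller falls than Kcnj2, from 1.25 for Cdr1 to 0.90 for Ncapd2, and included Lenep (1.20), Apeh, a peptidase (1.07), Mcat, of mitochondrial fatty acid synthesis (0.95), and Pcyt1a, of phosphatidylcholine synthesis (0.94). The Apeh call was lost under quantile normalization.

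The share of a gene's FPKM held by each transcript was described for 708 genes with several transcripts and at least 10 FPKM in every library. In 39 genes a transcript's share differed from E12.5 by 20 percentage points or more in both E13.5 libraries, in the same direction, with under 10 points between those. Gng2, a G protein gamma subunit, had a total of 10.7, 12.4 and 11.5 FPKM, of which 1 transcript (3678 bases) held 94.1% at E12.5 and 14.4% in both E13.5 libraries, while a transcript of 3638 bases held 4.1%, 81.9% and 82.3%. Akt1, a growth factor signalling kinase, held 50% in each of its transcripts of 2640 and 2690 bases at E12.5, and 95.0% and 96.4% in the longer one at E13.5. Tmem230, a membrane protein of vesicles, held 62.2% in a transcript of 1533 bases at E12.5 and 0.0% in both E13.5 libraries. Tmem176b, Ralgds and Ctbp1 were the others of the 6 largest shifts. These shares are Cufflinks estimates between transcripts that often differ by few bases, and 11 genes were left with 20 FPKM in each library and 14 with a shift of 30 points.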

How the data were processed

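RNA sequencing was analysed in the 3 Osr2RFP/+ libraries. Per the labels, palatal shelves were dissociated with trypsin, RFP-positive cells were sorted, and libraries were made after poly A selection. Their protocol text gives a Nextera and a stranded TruSeq kit side by side and does not say which library was made with which. Likewise 2 HiSeq models are named, and the model used for each library is not settled. The authors computed FPKM per RefSeq transcript with Cufflinks, per the file headers, whose version the sources do not give. The submitters' processing notes name TopHat 1.4.1 and Bowtie 0.12.7, and both mm10 and mm9 as builds. Of 30594 lines matched to an annotated transcript, 98.4% lay in the gene's GRCm38 locus, so positions are given on mm10. The deposited coverage signal, per the file headers, was used only to estimate depth.

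FPKM was summed over the transcripts of each of 23443 symbols, and 14 symbols with a failed estimate were left out. Genes that reached 1 FPKM in 2 or more of the 3 libraries were tested on log2(FPKM + 1) with limma 3.58.1 in R 4.3.3 (two-sided, Benjamini-Hochberg over 10396 genes, threshold 0.05), after the procedure was tested on simulated data. The fit had 1 residual degree of freedom, from the E13.5 pair, and 20.8 prior degrees of freedom. All differences, SE and adjusted p are from this fit. The filter cannot keep a gene on at E12.5 alone. Genes under 200 bases, with several loci or sharing 80% of a locus were marked uncertain.

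Gene lists numbered 43, with 1168 different genes. Of these, 1164 were in the tables and 856 were tested. The comparison, the lists and the rule for names were chosen with earlier results of these data known. The rule names Osr2, the 15 higher and 15 lower called genes with the largest difference and a mean of 5 FPKM in the higher age, and from each list up to 6 called members, its most abundant members and the mesenchyme markers. Members named beyond this rule, among them those named as not called, were picked after their values were seen. Some list members counted here are not reported by name. Alternatives changed the pseudocount, the filter, the scaling, the variance model and the genes kept, or left out an E13.5 library.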

Additional observations from a re-analysis of the deposited data

How the results depend on the processing

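The 1596 calls (1033 higher, 563 lower) became 653 (435 and 218) under quantile normalization, 994 (573 higher) after scaling to 1 FPKM sum, and 560 (401 and 159) with a filter at a mean of 5 FPKM. With no filter, 263 genes were called (8 higher, 255 lower), 1 of which is among the 1596; the prior degrees of freedom were then 0.711, and 2933 genes had an unadjusted p under 0.05. Calls that were higher made up 64.7% of all calls, 71.6% with the filter at a mean of 5 FPKM and 3.04% with no filter. The 138 genes of the size rule (122 higher, 16 lower) became 67 (61 and 6) with a pseudocount of 5. The 16 lower ones became 28 with a pseudocount of 0.1, 29 with no filter and 9 without genes of uncertain assignment. The 29 include the 13 genes at 5 FPKM or more at E12.5 and under 1 FPKM in both E13.5 libraries. The 39 isoform shifts became 11 at 20 FPKM in each library and 14 at 30 points. Apart from the 13 genes added to the lower ones with no filter, the cause of these moves was not tested. Without E13.5 control replicate 1 the size rule was met by 146 genes (115 higher, 31 lower), and without replicate 2 by 158 (139 higher, 19 lower). Leaving out either leaves no residual degree of freedom and thus no test, and leaving out the E12.5 library leaves no comparison. No paired analysis was possible because E12.5 has 1 library and the ages share fewer than 2 replicate numbers. No named gene reversed, and 184 of 341 named genes kept their call under every alternative with a filter. Beside the losses given in the report, the calls of Adamts2, Col14a1, Efna3, Etv1, Fen1, Gdf10, Gfra2, Hey1, Kera, Lgr6, Nefl, Nrp2, Smoc2, Snrpn, Sox5 and Wif1 were lost under quantile normalization, those of Bmp6 and Leprel1 also after scaling to 1 FPKM sum, those of Gli1 and Hic1 also with the mean filter and with robust variances, respectively, that of Sostdc1 with the mean filter and that of Epha7 with the mean filter and with no intensity trend. The medians of 11 of 40 lists changed sign, among them the FGF, Hedgehog, ephrin, imprinted, cholesterol, cartilage, tooth and, under quantile normalization, ribosomal protein lists.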

Other observations

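Of the globin genes, several were called and the most abundant was not. The embryonic alpha-like globin Hba-x had 446 FPKM at E12.5 and 376 and 341 at E13.5, and the embryonic beta-like globin Hbb-y had 125 FPKM at E12.5 and 159 and 119 at E13.5. Neither was called, while Hbb-bh1 fell as given above. The adult alpha globin copies Hba-a1 and Hba-a2 are near-identical and of uncertain assignment: Hba-a2 had 99.9 FPKM at E12.5 and 0.551 and 1.71 at E13.5, and Hba-a1 had 0.0994 FPKM at E12.5 and 47.6 and 30.5 at E13.5. Their sum was 48.1 and 32.2 FPKM at E13.5, below that of E12.5, nearly all of which was Hba-a2. The beta globin gene Hbb-bt fell by 0.90, and Hbb-b1, of uncertain assignment, had a difference of -1.21 and was called lower. Of 7 tested erythroid genes 1 was called higher and 4 lower (14.3% and 57.1%, against 9.94% and 5.42% of all genes), these copies included.

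Other large gene families showed changes in both directions. Of 79 ribosomal protein genes 22 rose and 6 fell (27.8% and 7.59%, against 9.94% and 5.42% of all genes). Their median of 0.13 turned to -0.01 under quantile normalization. Rpl12 fell by 0.82, from 742 FPKM to 404 and 437, and Rps14 rose by 0.98, from 63.8 FPKM to 123.5 and 130. Of 75 genes of oxidative phosphorylation 14 rose and 6 fell (18.7% and 8.0%), with a median of 0.13. Atp5d, an ATP synthase subunit, rose by 1.12, from 30.8 FPKM to 72.4 and 64.1, and Ndufa6, of complex I, fell by 0.74, from 31.4 FPKM to 18.9 and 17.9. Of 42 clustered histone genes 12 rose and 6 fell (28.6% and 14.3%), with a median of 0.18. Of the 12, 3 were under 1 FPKM at E12.5 and could only come out higher. Hist1h4j rose by 1.80, from 1.79 FPKM to 10.8 and 7.07, and Hist1h2bg had a log2 difference of -0.99 and was called lower. Most replication-dependent histone mRNAs lack a poly A tail, and the part of poly A selection in these levels was not tested. Cholesterol synthesis had 1 of 22 genes higher (4.55%) and none lower (median 0.01).

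At E12.5, 13 genes had 5 FPKM or more and under 1 FPKM in both E13.5 libraries, and the filter kept them out of the test. Of these, 12 were Xist, which overlaps Tsix, or short RNA genes of uncertain assignment, and Tsix, the antisense RNA of Xist, was the other, at 15.7 FPKM against 0. In the other direction 6 genes qualified and were tested, 4 of them of certain assignment: Anxa1, Dcn, Lynx1 and the Y-linked Eif2s3y.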
